A study of Mus musculus with 16 samples.

Results

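Cbs and 5 companion genes, Cth, Mat2a, Mat2b, Ahcy and Mtr, encode enzymes of the methionine cycle and of the branch that drains homocysteine from it. They were taken by symbol from the deposited count table and are 6 of its 55385 genes. All 6 had enough counts to be tested. The genes were chosen by measured values of these libraries, but which comparison was used is not recorded. Dp16 against wild-type, where Cbs was low, was taken to be that comparison, and its values are given as a description, with no test read from them. Any of the 16 libraries may have entered the choice, so no comparison of Cbs here is known to be independent of it. It is also an orthologue of a gene on human chromosome 21 that lies outside the stretch copied in Dp16 mice.

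The hippocampi came from mice 5 months old, and polyadenylated RNA was sequenced in 16 libraries, 4 for each of 4 genotypes. Wild-type mice were labelled C57BL/6J, and the labels gave no strain for the other genotypes. Dp16 mice carry an extra copy of a segment of mouse chromosome 16 whose genes correspond to human chromosome 21, and serve as a model of trisomy 21. 5xFAD mice carry human transgenes with mutations of familial Alzheimer disease, expressed in neurons from the Thy1 promoter, and 5xFAD-Dp16 mice have both the transgenes and the duplication. Wild-type, Dp16 and 5xFAD had 2 male and 2 female libraries each, and the 4 5xFAD-Dp16 libraries were male. The labels did not say whether libraries of a genotype came from separate mice, so the spread between them may be partly technical.

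In the methionine cycle, methionine adenosyltransferase joins methionine to ATP and makes S-adenosylmethionine, the donor for most methylation reactions of the cell. Giving up its methyl group turns this donor into S-adenosylhomocysteine, which is cleaved to homocysteine. Homocysteine is either methylated back to methionine, with folate and cobalamin, or condensed with serine to cystathionine by the enzyme that Cbs encodes, the entry to transsulfuration and to cysteine. The same enzyme can release hydrogen sulfide, and in brain it is found mainly in astrocytes. Loss of human CBS causes homocystinuria.

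Promoter sequence is shown for Cbs, the member that was lower in every library with the duplication, and for Mat2a, the member with the most counts and with no such difference. Both stretches were read from RefSeq on GRCm38.p6, run 5′ to 3′ on the minus strand, on which both genes lie, and end just before the gene. Cbs is at chr17:31637239-31637455 and Mat2a at chr6:72439559-72439806. Capitals mark matches on either strand to the E-box CACGTG, the promoter element CCAAT, the GC box GGGCGG or the core element TATAAA, and CCAAT on the other strand reads ATTGG here.
Cbs: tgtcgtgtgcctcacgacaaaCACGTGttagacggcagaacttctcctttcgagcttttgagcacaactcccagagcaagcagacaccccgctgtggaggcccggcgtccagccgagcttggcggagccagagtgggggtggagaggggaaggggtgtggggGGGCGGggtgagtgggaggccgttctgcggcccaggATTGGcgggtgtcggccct
Mat2a: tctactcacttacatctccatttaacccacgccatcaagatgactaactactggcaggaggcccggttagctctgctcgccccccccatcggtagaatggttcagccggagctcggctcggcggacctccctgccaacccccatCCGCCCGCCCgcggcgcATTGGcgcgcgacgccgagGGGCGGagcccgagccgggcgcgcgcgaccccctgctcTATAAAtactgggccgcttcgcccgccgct
The Cbs stretch held 1 E-box, 1 GC box and 1 reversed CCAAT. The Mat2a stretch held 3 GC boxes, of which 2 overlap, 1 reversed CCAAT and 1 TATAAA, 30 bases before its end. Over 32851 RefSeq promoters of 250 bases, CACGTG occurred in 6.02%, CCAAT in 33.8%, GGGCGG in 32.7% and TATAAA in 12.4%. In that 250-base window, which is longer than the printed stretch of Cbs, Cbs had 1 CACGTG, 2 CCAAT and 2 GGGCGG matches. Mat2a had the same matches there as in its printed stretch. In the same window, Cbs had 21 CpG sites and Mat2a 29, against a median of 6 over all promoters. These are letter matches and no binding was measured. RefSeq promoters were matched for 5 of the 6 genes, all except Cth.

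Total counts ran from 15838097 to 25037769 per library. The targeted genes followed the labels: App, which lies in the duplicated segment, was at 2637 to 3257 CPM (the usual per-library count scale, adjusted by the trimmed mean of M values, TMM) in the 8 libraries with the duplication and at 1645 to 2258 in the other 8. Thy1, whose promoter drives the transgenes, was at 1639 to 3083 CPM in the 8 libraries with the transgenes and at 761 to 929 in the others. Hippocampal field markers (8 genes) were all detected. The 4 libraries wild-type 4, 5xFAD 2, 5xFAD 4 and 5xFAD-Dp16 3 stood apart from the rest of their genotypes, with summed thalamus, midbrain or hypothalamus markers of 159, 448, 355 and 193 CPM, against 60.0 to 97.3 in Dp16. Choroid plexus markers ranged from 41.6 to 6502 CPM, with no genotype free of high libraries.

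Compared per transcript length, in the deposited RPKM (reads scaled to transcript length and library size), the subunit genes of methionine adenosyltransferase were the most abundant of the 6. Mat2b was at 31.8 ± 6.61 RPKM and Mat2a at 27.6 ± 6.08 (SD, n = 16), and Mat2b was the higher of the pair in 12 of 16 libraries. Ahcy followed at 11.8 ± 1.34 RPKM and Cbs at 3.83 ± 0.959, each step holding in 16 of 16 libraries. Mtr at 1.88 ± 0.273 and Cth at 1.70 ± 0.569 RPKM were lowest, and their order was not fixed, with Mtr above Cth in 10 of 16 libraries. The forms of these enzymes that dominate in liver were close to 0: Mat1a averaged 0.0473 RPKM and Bhmt, a betaine-dependent homocysteine methyltransferase, 0.189. Ahcyl1, a relative of Ahcy that regulates calcium release rather than the cycle itself, was at 89.7 ± 7.84 RPKM. Pooled over all 16 libraries, Cbs varied more than most members, with a CPM coefficient of variation of 24.8%, against 7.84% for Ahcy. Only Cth, with 26 to 89 counts per library, varied more, at 30.9%. These coefficients include differences between genotypes, such as that of Cbs, and were not computed within genotypes.

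Cbs in wild-type replicates 1 to 4 was at 37.1, 28.7, 31.8 and 27.3 CPM, a mean of 31.2 ± 4.35 (SD, n = 4). In Dp16 it was at 23.8, 15.6, 18.05 and 17.95 CPM (18.9 ± 3.49). The highest Dp16 library was below the lowest wild-type library, a pattern that 1.55% of all tested genes showed in this direction. In 5xFAD the 4 values lay close together, at 25.6, 25.7, 25.1 and 27.6 CPM (26.0 ± 1.08). In 5xFAD-Dp16 they were 17.9, 17.3, 24.3 and 19.5 CPM (19.7 ± 3.15). All 8 libraries with the duplication, at 15.6 to 24.3 CPM, were thus below all 8 without it, at 25.1 to 37.1 CPM, although the edge was narrow, between 24.3 in 5xFAD-Dp16 3 and 25.1 in 5xFAD 3. Such a separation downwards was found in 6 of 16684 tested genes (0.036%), and upwards in 30 (0.18%). Because all 16 libraries may have entered the choice of Cbs, this separation is a description and no independent evidence.

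**Figure D1:**
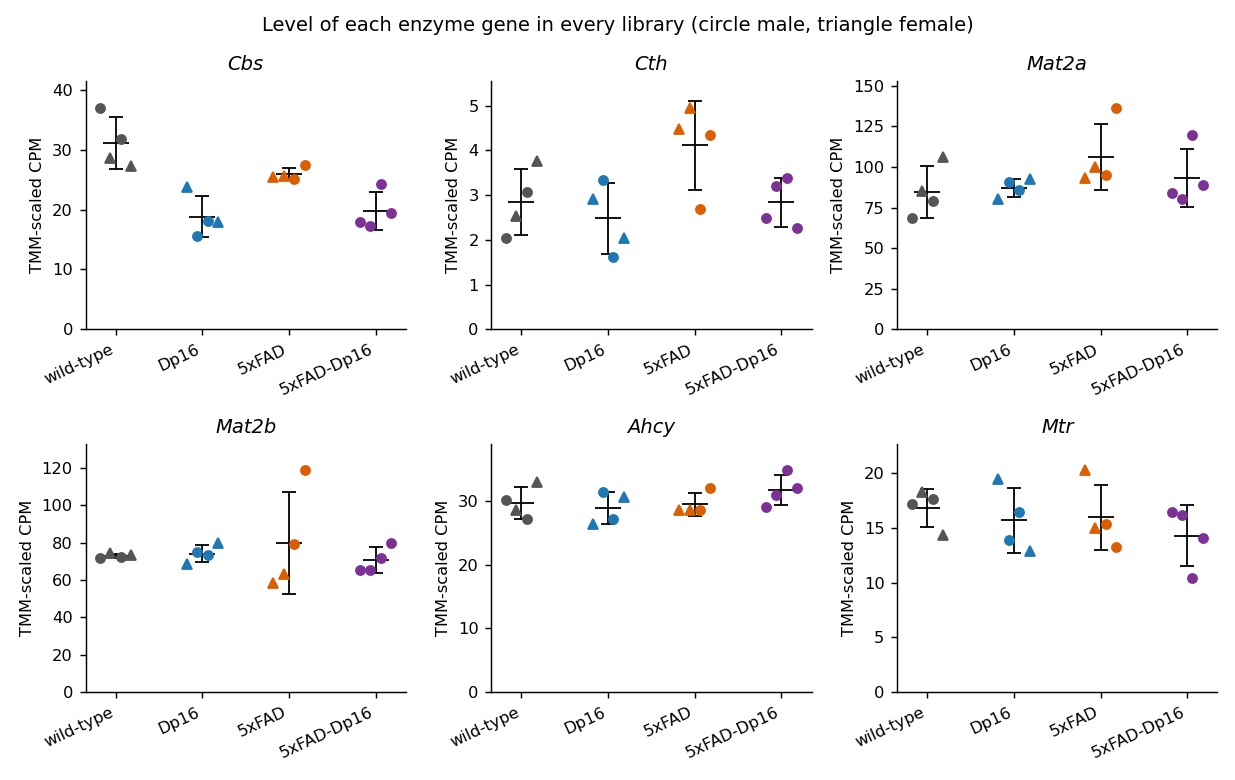
TMM-scaled CPM (y axis, from 0) of the 6 genes in each library, by genotype (x axis); circles are male, triangles female, and black bars are the mean ± SD of 4 libraries. Cbs in Dp16 and 5xFAD-Dp16 (15.6 to 24.3 CPM) lies below wild-type and 5xFAD (25.1 to 37.1), while for the other 5 genes the libraries with and without the duplication overlap.

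Among the 8 libraries with the transgenes, the log2 fold change of Cbs was -0.41 ± 0.15 (SE) in 5xFAD-Dp16 against 5xFAD, or 0.755-fold. Whether the choice of Cbs used this comparison is not known. The values of the groups did not overlap, as was the case in the same direction for 1.28% of all tested genes. Among 16684 genes, Cbs did not pass in edgeR's quasi-likelihood test (Benjamini-Hochberg adjusted p = 1.00). In that comparison 0 of the 6 genes passed, against 0.0539% of all tested genes. There 547 genes (3.28% of those tested) had an unadjusted p below 0.05 by edgeR. DESeq2 likewise called 0 members there. Among males alone, 4 libraries against 2, the mean log2 difference in Cbs was -0.43.

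In Dp16 against wild-type the fitted log2 fold change of Cbs was -0.73 ± 0.14 (SE), or 0.604-fold, in a comparison where 0.0839% of all tested genes passed by edgeR. Of the 6 genes, edgeR called 0 there and DESeq2 called 1, Cbs, from which nothing is read. Its difference of mean log2 CPM was -1.03 between males and -0.43 between females, with 2 libraries on each side, and whether the sexes differed was not tested. Outside that comparison, Cbs passed by edgeR in 5xFAD-Dp16 against wild-type, where it fell by 0.67 ± 0.15 on the log2 scale (0.629-fold, edgeR adjusted p = 0.0463). There 1 of the 6 genes passed, against 1.01% of all tested genes, and 0.03% passed downwards. This comparison shares its wild-type libraries with Dp16 against wild-type, so it is no independent evidence. The call also sat at the threshold: the call held without wild-type 4 (adjusted p = 0.0302), Dp16 1 (0.0148), Dp16 2 (0.0348) or 5xFAD-Dp16 3 (0.0181), and was lost without any one of the other 12 libraries, where adjusted p from edgeR ran up to 0.313 without wild-type 1 and the log2 fold change stayed between -0.69 and -0.54. It was also lost when only the groups compared were fitted (-0.79, adjusted p = 0.112) and with the replicate number as a block (-0.64, adjusted p = 0.0538). Of the 10 alternatives that did not leave out a single library, the other 8 kept the call.

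Cbs was also compared between libraries with and without the transgenes. In 5xFAD against wild-type the log2 fold change was -0.26 ± 0.14 (edgeR adjusted p = 0.622), and in 5xFAD-Dp16 against Dp16 it was 0.06 ± 0.16 (edgeR adjusted p = 0.910). These comparisons share the wild-type or the Dp16 libraries with the comparison taken to have chosen Cbs. The Cbs difference between libraries with and without the duplication was also compared between the 2 transgene backgrounds. Its value with the transgenes minus that without them was 0.32 ± 0.21 (interaction, edgeR adjusted p = 1.00), with a 95% interval of -0.13 to 0.77. The sex term was -0.02 ± 0.12 (female minus male, edgeR adjusted p = 0.995). No member passed in any of these: the shares of all tested genes that passed were 0.971% in 5xFAD against wild-type, 0.845% in 5xFAD-Dp16 against Dp16, 0% in the interaction and 0.048% between the sexes. For the interaction, 332 genes (1.99% of those tested) had an unadjusted p below 0.05 by edgeR, and DESeq2 called no member.

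**Figure D2:**
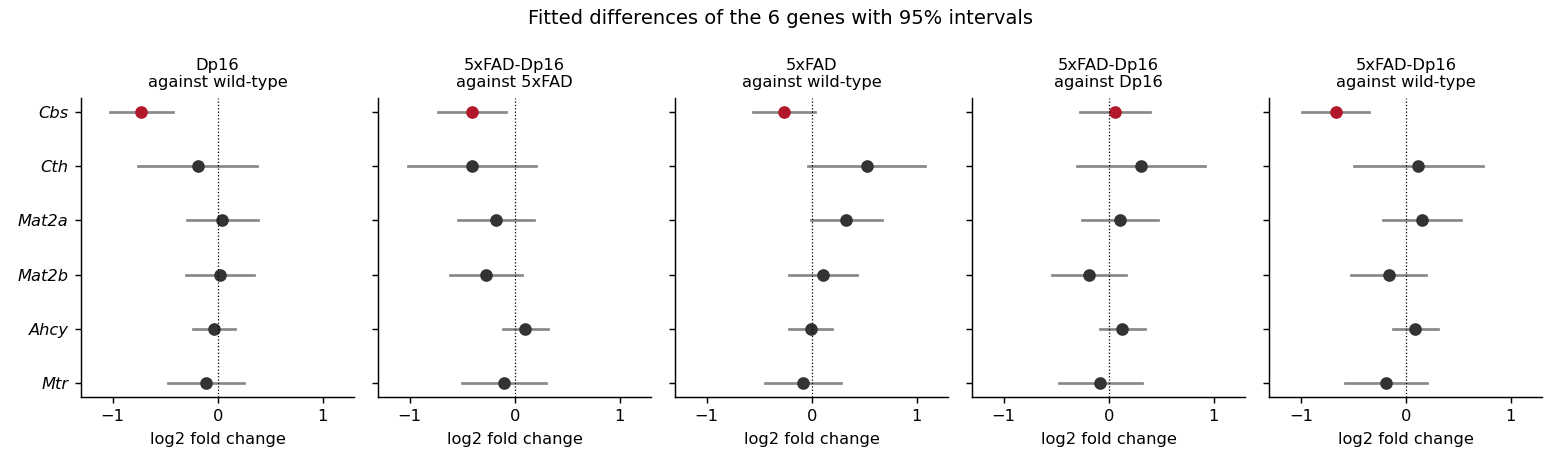
Fitted log2 fold changes (x axis) of the 6 genes (rows) in the 5 genotype comparisons (panels), with 95% intervals; Cbs is red. Cbs is at -0.73 in Dp16 against wild-type, -0.41 in 5xFAD-Dp16 against 5xFAD and -0.67 in 5xFAD-Dp16 against wild-type, values that the choice of Cbs may have used, and the intervals of the other 5 genes all include 0.

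Because Cbs is mainly an astrocyte gene in brain, its level was set beside 18 astrocyte markers, all of which were detected in each library. Their summed level ran from 10768 to 12481 CPM for wild-type, from 10724 to 12894 for Dp16, from 10739 to 13401 for 5xFAD and from 10942 to 13330 for 5xFAD-Dp16, so the ranges largely coincided. The sum is weighted to abundant genes, such as the glutamate transporter gene Slc1a2 with a mean of 3967 CPM and the glutamine synthetase gene Glul with 2166. Over the 16 libraries, the log2 CPM of Cbs did not follow this sum (Pearson r = -0.03). Marker by marker, 11 of 18 were negative in Dp16 against wild-type (median -0.03, against -0.01 over all tested genes) and 12 of 18 in 5xFAD-Dp16 against 5xFAD (median -0.06, against -0.00). In Dp16 against wild-type, the growth factor receptor gene Fgfr3 was at -0.42 ± 0.13, the transcription factor gene Sox9 at -0.32 ± 0.19 and Ppp1r3c, a glycogen-targeting phosphatase subunit, at -0.27 ± 0.12. In 5xFAD-Dp16 against 5xFAD the same 3 were at -0.01 ± 0.15, 0.14 ± 0.20 and -0.17 ± 0.13. These 3 markers were picked after their values were seen, none passed by edgeR, and their part in the Cbs difference was not tested. Of the 18, only Gfap, the filament protein that reactive astrocytes make in quantity, passed by edgeR in any genotype comparison. It rose in the 3 comparisons with the transgenes on 1 side, by log2 1.43 in 5xFAD against wild-type, and was 0.10 in Dp16 against wild-type. Per 1000 CPM of astrocyte markers, Cbs was at 2.71 ± 0.189 CPM in wild-type and 1.57 ± 0.255 in Dp16 (SD, n = 4 each), without overlap. It was at 2.15 ± 0.306 in 5xFAD and 1.68 ± 0.322 in 5xFAD-Dp16, and here the groups overlapped, since 5xFAD-Dp16 3, at 2.06, was above both 5xFAD 1 at 1.91 and 5xFAD 2 at 1.94. The share of all tested genes without overlap on this scale was not computed. Dp16 against wild-type is also the comparison taken to have chosen Cbs, so nothing is read from its gap. With the astrocyte sum as a further term in the fit, the Cbs difference was -0.39 in 5xFAD-Dp16 against 5xFAD and -0.75 in Dp16 against wild-type. Without the 4 libraries that stood apart it was -0.45 and -0.80. In bulk tissue, fewer cells of a type and less RNA per cell cannot be told apart.

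**Figure D3:**
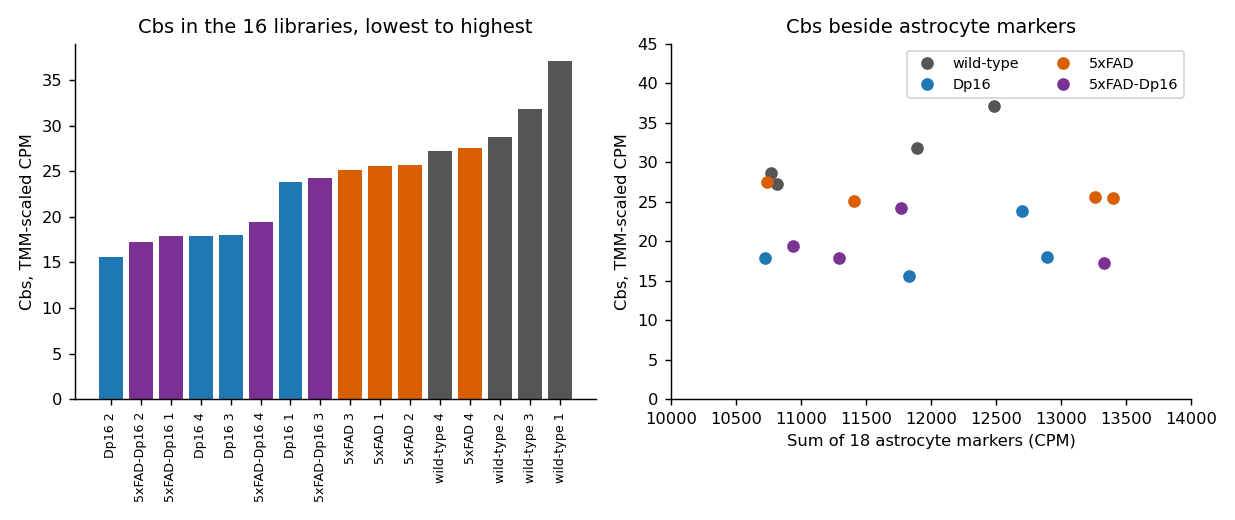
Left, Cbs in TMM-scaled CPM (y axis, bars from 0) in the 16 libraries in order of level, coloured by genotype; right, the same values against the summed CPM of 18 astrocyte markers (x axis, not from 0). The 8 lowest bars are the 8 libraries with the duplication, and the astrocyte sums of the genotypes cover much the same range, from 10724 to 13401 CPM in all.

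Cbs lies at chr17:31608894-31637238 (GRCm38, minus strand) and overlaps no other annotated gene. Of its nearest tested neighbours, Pknox1, a homeobox gene 1.2 kb away, differed by -0.03 ± 0.21 in Dp16 against wild-type and by 0.11 ± 0.24 in 5xFAD-Dp16 against 5xFAD. U2af1, a splicing factor gene 9.84 kb away on the other side, differed by -0.13 ± 0.08 and -0.10 ± 0.09. In 5xFAD-Dp16 against 5xFAD, U2af1 was at 35.8 ± 0.727 against 38.0 ± 1.94 CPM (SD, n = 4 each) without overlap, as Cbs was. Sik1, a salt-inducible kinase gene, was at -0.28 ± 0.16 and 0.06 ± 0.17. None of these passed by edgeR in either comparison, nor did the clones Gm50455, Gm50107 and Gm30571 beside them. Of the 19 human chromosome 21 orthologues listed on mouse chromosome 17, 13 were tested, and Cbs in 5xFAD-Dp16 against wild-type was the only one to pass by edgeR in any of the 5 genotype comparisons, leaving aside that DESeq2 also called Cbs in Dp16 against wild-type. Their median log2 fold change was -0.10 in Dp16 against wild-type and 0.02 in 5xFAD-Dp16 against 5xFAD, against -0.01 and -0.00 over all tested genes. Of the 28 tested orthologues on chromosome 10, also outside the duplication, Itgb2, a leukocyte integrin subunit, rose in the 3 comparisons with the transgenes on 1 side, by log2 1.76 in 5xFAD against wild-type, and no other passed by edgeR.

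The other 5 genes that were lower in all 8 libraries with the duplication were Rfx5, Gpc5, Pik3r3, Fbl and Gm11942, and none lies on chromosome 17. Rfx5, a transcription factor of major histocompatibility class II genes, averaged 12.04 ± 1.46 CPM with the duplication and 17.1 ± 1.52 without it (SD, n = 8 each). Pik3r3, a regulatory subunit of phosphoinositide 3-kinase, had the clearest gap, with 27.7 ± 2.17 against 38.6 ± 3.46 CPM. Cbs had a ratio of means of 0.675, lower than Rfx5 at 0.703 and Pik3r3 at 0.717, while Gm11942, a clone at about 1 to 2 CPM, was at 0.613. None of the 6 passed in 5xFAD-Dp16 against 5xFAD, where the lowest edgeR adjusted p among them was 0.195, for Pik3r3.

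Across the 16 libraries and 14560 genes with a mean of at least 1 CPM, the genes most like Cbs in log2 CPM were Rfx5 (Pearson r = 0.85), Chd1l (0.80), Samm50 (0.76), Gpc5 (0.75) and Dzip1 (0.75). Rfx5 and Chd1l both lie on chromosome 3, Gpc5 and Dzip1 both on chromosome 14, and Samm50 on chromosome 15. The part of these shared positions in the r values was not tested. Once the mean of each genotype was subtracted, the list became 4933431E20Rik (0.82), Kif13b (0.77), Plekhh3 (0.76), Tpt1-ps3 (0.74) and Gm10925 (0.74), with no gene in common. These r values were picked as the highest of 14560 and are a description. Dzip1, a gene of primary cilia, averaged 75.0 CPM in wild-type and 72.9 in 5xFAD, against 56.8 in Dp16 and 59.9 in 5xFAD-Dp16.

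The S-adenosylmethionine synthase consists of a catalytic subunit, encoded by Mat2a (chr6:72432799-72439558), and a regulatory subunit, encoded by Mat2b (chr11:40679314-40695203). Mat2a was at 68.3, 85.2, 79.1 and 106 CPM in wild-type replicates 1 to 4, a mean of 84.7 ± 15.9 (SD, n = 4). It was at 80.0, 91.0, 85.7 and 92.4 CPM in Dp16 (87.3 ± 5.62), within the wild-type range. In 5xFAD it was at 93.5, 99.7, 95.3 and 137 CPM (106 ± 20.4), and in 5xFAD-Dp16 at 83.8, 80.3, 120 and 88.9 (93.2 ± 18.04). The Dp16 and 5xFAD values of Mat2a did not overlap, by a narrow edge between 92.4 and 93.5 CPM, and every other pair of genotypes did. These 2 genotypes differ in both the duplication and the transgenes. The share of all tested genes with such a gap was not computed, so nothing is read from it. The highest values in 3 of the 4 genotypes belonged to wild-type 4, 5xFAD 4 and 5xFAD-Dp16 3, which are among the libraries that stood apart. The largest fitted difference of Mat2a was 0.33 ± 0.16 in 5xFAD against wild-type (edgeR adjusted p = 0.572), and with any single library left out it ran from 0.18, without 5xFAD 4, to 0.46. Its duplication differences were 0.04 ± 0.16 in Dp16 against wild-type and -0.18 ± 0.17 in 5xFAD-Dp16 against 5xFAD, the second with a 95% interval of -0.54 to 0.18 and at 0.04 without 5xFAD 4. Particl, an unvalidated transcript on the opposite strand that overlaps Mat2a, had 212 to 457 counts, so some reads may belong to either gene, since the strand setting of the counting is unstated in the sources.

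Mat2b was nearly constant in wild-type, at 71.7, 74.5, 72.6 and 73.3 CPM (73.0 ± 1.20, SD, n = 4), and at 68.9, 74.8, 73.4 and 79.8 CPM in Dp16 (74.2 ± 4.50). In 5xFAD it was at 58.1, 63.4, 79.6 and 119 CPM (80.0 ± 27.4), so that 5xFAD 4 held the highest and 5xFAD 1 the lowest value of all 16 libraries. In 5xFAD-Dp16 it was at 65.1, 65.4, 71.8 and 79.8 CPM (70.6 ± 6.92). Its fitted log2 differences were 0.02 ± 0.15 in Dp16 against wild-type, -0.27 ± 0.16 in 5xFAD-Dp16 against 5xFAD and 0.11 ± 0.15 in 5xFAD against wild-type. The last turned to -0.11 without 5xFAD 4, and the second to 0.02. None passed.

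Ahcy (chr2:155059310-155074497) encodes the hydrolase that splits S-adenosylhomocysteine, a product that otherwise inhibits methyltransferases. It was the steadiest of the 6 genes over the pooled libraries. It was at 30.1, 28.5, 27.1 and 32.9 CPM in wild-type, a mean of 29.7 ± 2.49 (SD, n = 4), and at 26.4, 31.5, 27.1 and 30.7 in Dp16 (28.9 ± 2.55). In 5xFAD it was at 28.6, 28.6, 28.5 and 32.1 CPM (29.4 ± 1.77), and in 5xFAD-Dp16 at 29.0, 30.9, 34.8 and 32.0 (31.7 ± 2.41). All groups overlapped. Its fitted differences lay between -0.04 and 0.13 in the 5 genotype comparisons, and the 95% interval in Dp16 against wild-type was -0.24 to 0.16. The pseudogenes Gm4737 and Gm9826, which match the Ahcy transcript at 99.7% over 2083 bases and 99.2% over 1299 bases, had only 1 to 14 and 1 to 8 counts, and reads that match both places may be missing from either.

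The gene next to Ahcy did differ. The nonagouti gene, a, which sets coat colour through melanocortin signalling, ends 8.3 kb from Ahcy (chr2:154791402-155051012). It had 31 to 54 counts in Dp16 and 30 to 57 in 5xFAD-Dp16. In wild-type it had 0 counts in each library, and in 5xFAD 0, 0, 0 and 3. The 8 libraries with the duplication thus stood apart from the other 8 at a gene of chromosome 2 as well, outside the duplicated segment. The labels gave no strain for these groups, so strain background and the duplication cannot be told apart. The same holds for Cbs, which divides along the same 8 and 8 libraries and also lies outside the duplicated segment. Ahcy showed no such split, with 26.4 to 34.8 CPM in those 8 libraries and 27.1 to 32.9 in the other 8. What lies behind the counts of the neighbour was not tested.

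Mtr (chr13:12182712-12258113) encodes methionine synthase, the cobalamin enzyme that remakes methionine from homocysteine with a methyl group from folate. It was at 17.1, 18.3, 17.6 and 14.3 CPM in wild-type, a mean of 16.8 ± 1.75 (SD, n = 4), and at 19.5, 13.85, 16.4 and 12.9 in Dp16 (15.7 ± 2.96). In 5xFAD it was at 20.3, 14.98, 15.3 and 13.3 CPM (15.95 ± 3.004), and in 5xFAD-Dp16 at 16.4, 16.2, 10.4 and 14.1 (14.3 ± 2.77). The lowest value of wild-type, 5xFAD and 5xFAD-Dp16 was in wild-type 4, 5xFAD 4 and 5xFAD-Dp16 3, the same libraries in which Mat2a was highest. No difference passed, and the largest was -0.19 ± 0.18 in 5xFAD-Dp16 against wild-type.

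Cth (chr3:157894248-157925077) encodes cystathionine gamma-lyase, which takes the product of the Cbs enzyme on to cysteine. At 2.04, 2.53, 3.07 and 3.76 CPM in wild-type, a mean of 2.85 ± 0.736 (SD, n = 4), it was the rarest member in counts. It was at 2.92, 3.34, 1.61 and 2.03 CPM in Dp16 (2.48 ± 0.795). In 5xFAD 3 of the 4 libraries were above all libraries of the other genotypes, at 4.47, 4.96, 2.68 and 4.34 CPM (4.11 ± 0.990). In 5xFAD-Dp16 it was at 2.49, 3.20, 3.39 and 2.26 CPM (2.84 ± 0.546). The high libraries 5xFAD 2 at 4.96 and 5xFAD 4 at 4.34 are among those that stood apart. Over the 16 libraries, Cth had r = 0.68 with the thalamus, midbrain or hypothalamus sum, 0.58 with the oligodendrocyte sum and -0.58 with the neuron sum. The part of these in the Cth values was not tested. The fitted difference was 0.52 ± 0.26 in 5xFAD against wild-type (edgeR adjusted p = 0.596), and -0.40 ± 0.29 in 5xFAD-Dp16 against 5xFAD, a point estimate like that of Cbs with a 95% interval of -1.01 to 0.21. At these counts a change of the size seen in Cbs was not resolved.

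Mat2a, Ahcy, Mat2b and Mtr varied along a balance of long and short genes that differed between libraries. For each library, the median log2 deviation of 3339 genes with transcripts of at most 2.5 kb was subtracted from that of 2283 genes of at least 6 kb. The score was lowest in 5xFAD 4 (-0.57), wild-type 4 (-0.37) and 5xFAD-Dp16 3 (-0.37), and reached 0.27 in Dp16 3. Over the 16 libraries, Mat2a had r = -0.87 with it, Ahcy -0.75, Mat2b -0.62, Cth -0.41 and Mtr 0.69, and Cbs -0.22. Mat2a also had r = -0.81 with the neuron marker sum and 0.77 with the thalamus, midbrain or hypothalamus sum, while Cbs had -0.20 and 0.28. Other marker sums were as closely tied to Mat2a. Its r was -0.84 with oligodendrocyte precursor, -0.80 with hippocampal field and 0.74 with oligodendrocyte markers, against -0.02, -0.23 and 0.18 for Cbs. Between members, Ahcy and Mtr had r = -0.81 and Mat2a and Mtr -0.66, and the r of Cbs with the other 5 lay between -0.12 and 0.25. These correlations are descriptions over libraries that share their preparation, and their part in the genotype differences was not tested.

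**Figure D4:**
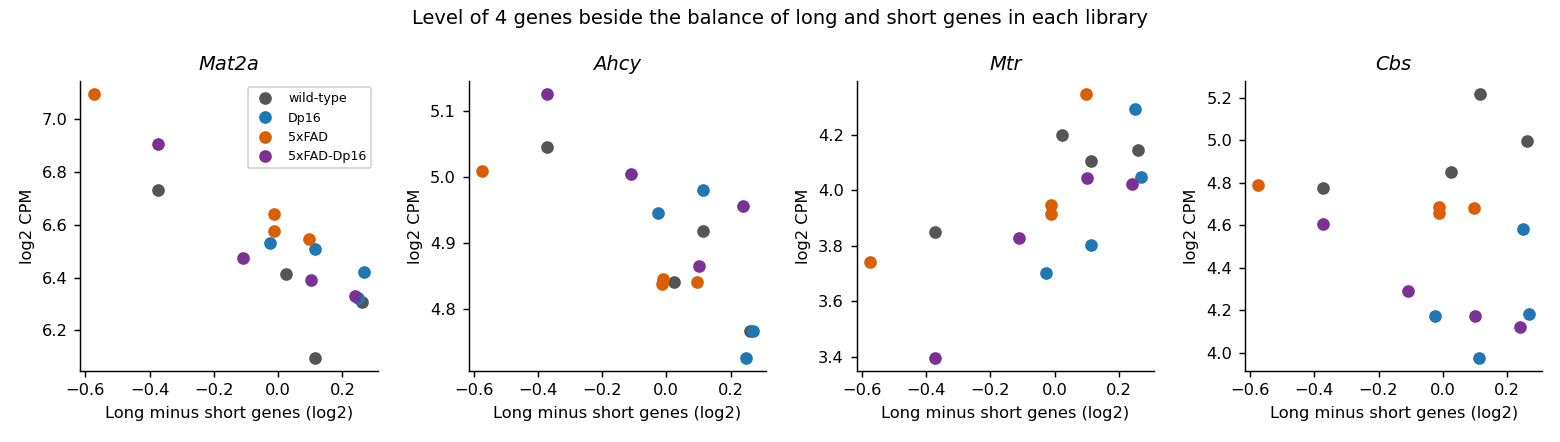
log2 CPM (y axes, not from 0) of Mat2a, Ahcy, Mtr and Cbs against the long-minus-short gene score of each library (x axes, log2), coloured by genotype. Mat2a and Ahcy fall and Mtr climbs along the score (r = -0.87, -0.75 and 0.69), while Cbs (r = -0.22) divides into libraries with and without the duplication.

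The rest of the pathway gave few calls by edgeR, to which all counts of passed genes below refer. Of 13 listed methionine cycle genes, 11 were tested and 0 passed in any of the 5 genotype comparisons. Their median was 0.02 in Dp16 against wild-type and -0.06 in 5xFAD-Dp16 against 5xFAD. Mtrr, the reductase that keeps methionine synthase active, was at 0.11 ± 0.11 and -0.08 ± 0.12. Of 14 transsulfuration and sulfide genes, all tested, Cbs in 5xFAD-Dp16 against wild-type was the only one to pass with edgeR. Csad, which makes the precursor of taurine from cysteine sulfinate, was at 0.46 ± 0.12 in 5xFAD-Dp16 against 5xFAD (edgeR adjusted p = 0.777) and at 0.15 ± 0.11 in Dp16 against wild-type. Kyat1, a cysteine conjugate beta-lyase, was at 0.28 ± 0.15 and 0.27 ± 0.14.

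Downstream of cysteine, 0 of 12 glutathione genes passed. Their medians were -0.05 in Dp16 against wild-type and -0.06 in 5xFAD-Dp16 against 5xFAD. Slc7a11, the cystine importer, was at -0.35 ± 0.15 and -0.21 ± 0.16, and Chac2, a glutathione-degrading enzyme, at 0.01 ± 0.23 and -0.47 ± 0.25. On the folate side, 0 of 24 tested genes passed, with medians of -0.04 and -0.04. Shmt1, the cytosolic serine hydroxymethyltransferase, was at 0.67 ± 0.22 in Dp16 against wild-type and at -0.10 ± 0.24 in 5xFAD-Dp16 against 5xFAD. In 5xFAD against wild-type Fpgs, which adds glutamate tails to folate, was at 0.59 ± 0.17 (edgeR adjusted p = 0.197) and Aldh1l2, the mitochondrial formyltetrahydrofolate dehydrogenase, at 0.61 ± 0.23 (0.412).

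Among 13 cobalamin and pyridoxal cofactor genes 0 passed. Mmaa and Mmadhc, which handle cobalamin, were at -0.35 ± 0.17 and -0.27 ± 0.16 in 5xFAD-Dp16 against 5xFAD. In Dp16 against wild-type they were at -0.01 ± 0.16 and -0.10 ± 0.15. Among 14 tested methyl-acceptor genes, the methyltransferases that spend S-adenosylmethionine, 0 passed. Gamt, which methylates guanidinoacetate to creatine, was at 0.26 ± 0.12 in Dp16 against wild-type and at 0.18 ± 0.12 in 5xFAD-Dp16 against 5xFAD. Dnmt3a, a DNA methyltransferase, was at 0.07 ± 0.11 and -0.30 ± 0.12 in the same order. Among 12 polyamine and methionine salvage genes 0 passed as well. Sat1, the spermidine acetyltransferase, was at 0.69 ± 0.24 in 5xFAD against wild-type (edgeR adjusted p = 0.346). The medians of these 3 lists lay between -0.12 and 0.01 in Dp16 against wild-type and in 5xFAD-Dp16 against 5xFAD.

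**Figure D5:**
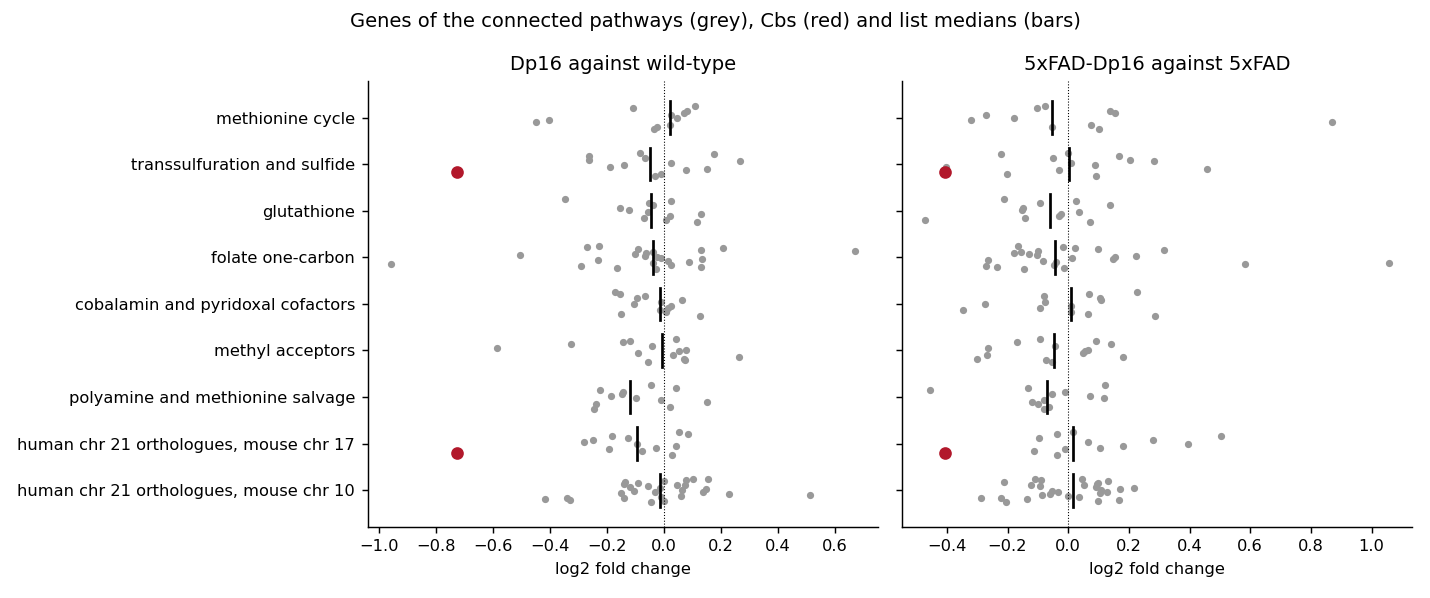
log2 fold changes (x axes, scaled separately) of the tested genes of 9 lists (rows) in Dp16 against wild-type (left) and 5xFAD-Dp16 against 5xFAD (right); grey points are genes, red points Cbs, which 2 lists hold, and black bars list medians. Cbs is at -0.73 and -0.41, and the medians of all lists lie between -0.12 and 0.02.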

How the data were processed

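PolyA RNA of 16 hippocampus libraries was sequenced from strand-specific libraries. Per the submitters' processing notes, the tools were bcl2fastq, FastQC 0.11.5, HISAT2 2.1.0, SAMtools 1.5 and HTSeq 0.6.1 with GRCm38. The strand setting of the counting was not given in the sources used here. The authors deposited raw counts and RPKM for 55385 genes. In all 14933 genes checked, the deposited RPKM implied 1 gene length over the libraries (relative tolerance 1e-06).

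Counts were fitted with edgeR 4.0.16 in R 4.3.3: default low-count filter by genotype (16684 genes), TMM scaling, and a robust quasi-likelihood model with a term per genotype and 1 for sex over all 16 libraries. P-values were Benjamini-Hochberg adjusted over the tested genes, with a threshold of 0.05, and SE came from the fold change and its test statistic. log2 CPM used a prior count of 2. Coordinates came from GENCODE vM21 (55144 of 55385 identifiers found). The depth of 15838097 to 25037769 counts gave Cbs 291 to 762 counts per library, and Cth 26 to 89. The steps were tested on simulated data.

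The 6 genes and the pathway lists were chosen with earlier results of these data known. Named beside the 6 were list genes that passed, otherwise those with the smallest p, the genes most correlated with Cbs and its neighbours. The genes that were lower in all libraries with the duplication, App, Thy1, the nonagouti gene and the gene-length score were chosen after values were seen. Replicate numbers were not used as pairs in the main fit. Deviations of same-number pairs correlated between -0.35 and 0.35, with r above 0.1 in 9 of 24 pairs. That check cannot show that no pairing exists. No 2 libraries of the same genotype were duplicates (chi-square per degree of freedom at least 8.36), and pairs across genotypes were not checked. Alternatives were other scaling, DESeq2 1.42.0, other filters, no sex term, males only, only the groups compared, a replicate block and leaving out each library. Chosen after seeing the data were leaving out the 4 libraries that stood apart and a term for astrocyte markers.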

Additional observations from a re-analysis of the deposited data

Results flagged for a closer look

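In 5xFAD, replicate 4 lay far above the other 3 libraries in 2 genes. Mat2a was at 137 CPM there, against 93.5 to 99.7 in the others, and Ahcy at 32.1 CPM, against 28.5 to 28.6. Both were found among 24 groups of 4 libraries examined with Dixon's gap test, and chance flags about 1 in 20 such groups. The same library had the lowest long-minus-short gene score of all 16, at -0.57, and a thalamus, midbrain or hypothalamus marker sum of 355 CPM. Their part in these values was not tested.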

How the results depend on the processing

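In 5xFAD-Dp16 against 5xFAD, Cbs stayed negative and uncalled in all alternatives, from -0.52 to -0.34 with 1 library left out and from -0.45 to -0.39 otherwise. In Dp16 against wild-type, taken as the comparison that chose Cbs, its value was -0.72 with DESeq2, -0.73 without a filter and -0.80 without the 4 libraries that stood apart. In each of these 1 member was called, and it ran from -0.87 to -0.63 with single libraries left out, with 0 to 1 members called. Nothing is read from these calls. In 5xFAD-Dp16 against wild-type it was not past the threshold in the 2 groups alone (-0.79) or with the replicate block (-0.64), with 0 members called in each. With single libraries left out it ran from -0.78 to -0.54, with 0 to 1 members called. The block changed no other call of a member. The scaling of the levels to library totals moved no mean of a member by more than its SD. For the changes listed here, the cause was not tested, except that fewer genes or libraries entered some fits.

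In the order Dp16 against wild-type, 5xFAD-Dp16 against 5xFAD, 5xFAD against wild-type, 5xFAD-Dp16 against Dp16, 5xFAD-Dp16 against wild-type, the genes called among all tested were 14, 9, 162, 141 and 169. They became 38, 27, 292, 269 and 267 with DESeq2, 210, 75, 398, 620 and 355 without a filter, 0, 0, 44, 49 and 61 in males only, and 4, 0, 76, 81 and 40 in the 2 groups alone. Between the sexes the 8 calls became 21 with DESeq2 and 404 without a filter, and without a filter the interaction had 128. In 5xFAD-Dp16 against 5xFAD they became 17 with no sex term, 0 with the replicate block and 15 with the astrocyte term. In Dp16 against wild-type they became 39 without the 4 libraries. With single libraries left out the counts ran from 3 to 17, 0 to 11, 109 to 189, 76 to 146 and 80 to 172.

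Small differences that were not called changed sign. Without the 4 libraries, Ahcy was at 0.021 in Dp16 against wild-type and 0.011 in 5xFAD against wild-type, Mat2b at -0.062 in the latter, and in 5xFAD-Dp16 against Dp16 Cbs was at -0.0024, Mat2a at -0.018 and Mtr at 0.086. The sex term of Cbs became 0.069 there and 0.039 with the block. In males only, Ahcy was at 0.044 in Dp16 against wild-type and 0.063 in 5xFAD against wild-type, and Mtr at 0.018 in 5xFAD-Dp16 against 5xFAD. With no sex term, Cth was at -0.0064 in 5xFAD-Dp16 against wild-type and the interaction of Mtr at -0.053, and with the block at -0.0065. With the astrocyte term Ahcy was at 0.021 in 5xFAD against wild-type.

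With single libraries left out, ranges that crossed 0 in Dp16 against wild-type were -0.056 to 0.18 for Mat2a, -0.063 to 0.084 for Mat2b and -0.085 to 0.025 for Ahcy. In 5xFAD-Dp16 against 5xFAD they were -0.32 to 0.038 for Mat2a, -0.34 to 0.018 for Mat2b and -0.21 to 0.023 for Mtr. In 5xFAD against wild-type they were -0.11 to 0.22 for Mat2b and -0.060 to 0.052 for Ahcy. In 5xFAD-Dp16 against Dp16 they were -0.073 to 0.16 for Cbs, -0.033 to 0.17 for Mat2a and -0.15 to 0.048 for Mtr, and in 5xFAD-Dp16 against wild-type -0.028 to 0.25 for Cth. For the interaction they were -0.41 to 0.16 for Cth and -0.10 to 0.14 for Mtr, and for the sex term -0.11 to 0.048 for Cbs, -0.049 to 0.14 for Mat2a and -0.039 to 0.030 for Ahcy.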
